A study of Mus musculus with 7 samples.

Results

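Nonclassical patrolling monocytes were taken as bone marrow cells with at least 1 UMI of Csf1r, at least 2 UMIs of Ace, Treml4 and Cd300e together, and fewer than 4 UMIs of the complement genes C1qa, C1qb and C1qc together. A UMI (unique molecular identifier) counts 1 captured transcript. Cells entered with at least 300 genes and less than 10% of their UMIs from mitochondrial genes. The rule found 597 of 54669 such cells (1.09%), with a median of 4167 UMIs and 1801 genes per cell. Of these, 448 carried the hashtag of 1 sample, 146 carried more than 1 hashtag and 3 carried none. The 448 cells of a known sample are described below unless stated otherwise. A further 122 cells met every condition but the one on C1q, and 145 cells met every condition but the one on Csf1r.

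The series profiled total bone marrow of mice, after lysis of red cells, on a droplet platform that reads the 3′ ends of transcripts. It has 7 libraries in 4 pools and 20 hashtag samples. The samples carry the prefixes HRO (6 samples), HRY (3), WTO (4) and WTY (3). A further pair, HRO.5 and HRO.6, is described as chronic and TET2-mutated and was kept as a group of its own. The samples HR.7 and HR.AE have names with neither prefix and were given no group. No strain, age, sex, genotype or treatment is stated for any other sample, and the prefixes were not interpreted. Of HRO, HRO.7 to HRO.9 were in pool WBM_2, HRO.10 in WBM_3 and the last 2 in WBM_4. Of WTO, WTO.3 was in WBM_1, WTO.4 in WBM_2 and the other 2 in WBM_4. WTY.3, HRY.4 and the chronic pair were in WBM_1, and the remaining WTY and HRY samples were in WBM_3 with HR.7, while HR.AE was in WBM_2. It is not stated that each hashtag is 1 animal, so a p-value here measures how far these samples scatter, which may be technical.

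Nonclassical monocytes patrol the inner wall of blood vessels, clear debris and immune complexes, and can arise from classical Ly6C-high monocytes that leave the cell cycle. In mice they carry little Ly6C and CCR2 and much of the fractalkine receptor CX3CR1. The nuclear receptor Nr4a1 is needed for their formation in bone marrow, and signalling through the CSF1 receptor keeps them alive.

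The promoters of the 3 genes that chose the cells are shown because these genes were read together in 1 cell type. Ace encodes angiotensin-converting enzyme (chr11:105967945-105989964), Treml4 a receptor that binds dead cells (chr17:48264295-48275360), and Cd300e an activating immune receptor (chr11:115051917-115062177), all on GRCm38. Each sequence is the RefSeq promoter on GRCm38.p6, 250 bases before to 50 bases after a gene start, written 5′ to 3′ along the gene. Capitals mark GAGGAA on either strand, a core that PU.1, the product of Spi1, can bind. The windows are chr11:105967698-105967997 on the plus strand for Ace, chr17:48264045-48264344 on the plus strand for Treml4 and chr11:115061990-115062289 on the minus strand for Cd300e.
Ace: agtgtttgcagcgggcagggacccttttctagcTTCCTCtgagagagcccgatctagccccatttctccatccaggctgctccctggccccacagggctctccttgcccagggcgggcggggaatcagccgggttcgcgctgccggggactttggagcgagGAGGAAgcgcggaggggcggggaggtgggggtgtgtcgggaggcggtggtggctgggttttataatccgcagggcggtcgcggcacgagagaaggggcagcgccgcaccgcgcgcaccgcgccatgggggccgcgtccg
Treml4: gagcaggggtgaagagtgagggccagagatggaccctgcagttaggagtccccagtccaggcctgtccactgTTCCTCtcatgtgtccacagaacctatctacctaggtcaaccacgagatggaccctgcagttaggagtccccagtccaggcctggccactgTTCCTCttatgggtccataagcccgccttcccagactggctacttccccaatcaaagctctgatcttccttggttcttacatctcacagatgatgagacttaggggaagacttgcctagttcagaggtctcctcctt
Cd300e: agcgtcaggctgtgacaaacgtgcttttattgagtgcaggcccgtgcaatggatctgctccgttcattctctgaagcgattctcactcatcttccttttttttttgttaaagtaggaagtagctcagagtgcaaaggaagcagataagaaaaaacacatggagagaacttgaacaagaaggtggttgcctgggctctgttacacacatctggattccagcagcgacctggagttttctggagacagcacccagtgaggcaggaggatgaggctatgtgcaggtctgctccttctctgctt
The core was found 2 times in the Ace window, 2 times in the Treml4 window and 0 times in the Cd300e window. A further RefSeq start of Ace, at chr11:105974939-105975238, held 0 matches. Of 32851 RefSeq promoters of this length, 9289 (28.3%) held at least 1 match, so a match is common and describes letters only. Spi1 was detected at 722, 671, 415, 530 and 648 CPM in the cells of HRO.7, HRO.9, WTO.4, HR.7 and HRO.10, where CPM is a gene's UMIs per 1000000 UMIs, summed over the cells.

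The libraries held 25343305 to 95553827 UMIs. WBM_3a gave 227 nonclassical monocytes (3.30% of its kept cells) and WBM_3b 89 (1.53%), against 0.247% in WBM_1, 72 to 81 cells in each WBM_2 library and 0.278% in WBM_4. WBM_3a and WBM_3b shared 2078 barcodes, against 51 in the next pair of libraries, and for these 2 libraries the copy of a shared barcode with fewer UMIs was removed. Among the 597 cells, 43 had a barcode found in both. Cells with more than 1 hashtag made up 24.5% of nonclassical monocytes and 16.8% of all kept cells. The cells of a known sample came from 19 samples, 5 of which held at least 20 cells and 12 of which held fewer than 10. Summed over these cells a sample held 2239 to 644588 UMIs.

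The label was checked on 3 markers that the rule did not use. Cx3cr1, the fractalkine receptor (chr9:119901616-120069879, minus strand), was detected in 71.0% of nonclassical monocytes. Nr4a1, the nuclear receptor (chr15:101254269-101274795, plus strand), was detected in 57.1%, and Eno3, the muscle form of enolase (chr11:70657202-70662513, plus strand), in 43.5%. In all, 88.8% of the cells held at least 1 of the 3, and 107 cells held all 3, 157 held 2, 134 held 1 and 50 held 0. The comparison was with 6866 Ccr2 F13a1 monocytes, which had Csf1r, at least 2 UMIs of Ccr2 and F13a1 together, none of Ace, Treml4 or Cd300e, and fewer than 4 C1q UMIs. In these cells Cx3cr1 was detected in 33.7%, Nr4a1 in 9.5% and Eno3 in 2.21%, although their median depth was 8237.5 UMIs against 3760.5. With every cell thinned to 1000 UMIs, which left out 11 nonclassical and 17 comparison cells, the shares were 37.3% against 9.80% for Cx3cr1, 27.7% against 1.75% for Nr4a1 and 19.9% against 0.365% for Eno3. B lineage cells (2427 cells, median 2413 UMIs), which should lack the 3 rule genes, were chosen to hold no Csf1r. Of them 0.288% held at least 2 UMIs of the rule genes and 1.19% held Cx3cr1. Among 517 cells with Csf1r and at least 4 C1q UMIs (median 8352 UMIs), 32.9% held at least 1 UMI of the rule genes. At least 2 UMIs were found in 16.8% of them (87 cells), so the rule genes were not confined to the nonclassical monocytes.

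Around the limit of 2 UMIs Adgre4 was found in more cells at each step on both sides and Cx3cr1 at each step but that from 3 to 4 UMIs, while Ly6c2 fell up to 2 UMIs and had no further steady fall above it. Cells with Csf1r and exactly 1 UMI of the 3 rule genes (387 cells, just outside) held Cx3cr1 in 49.1%, Adgre4 in 37.7% and Ly6c2 in 66.9%. Cells with exactly 2 UMIs (148 cells, just inside) held Cx3cr1 in 60.1%, Adgre4 in 62.8% and Ly6c2 in 45.3%. With 6 or more UMIs (92 cells) the shares were 87.0%, 88.0% and 45.7%. Median depth was 4861 UMIs with 1 UMI of the rule genes, 2815 with 2 and 4848.5 with 6 or more. The plot of detection by UMIs of the rule genes shows this run for nonclassical and classical genes.

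**Figure D1:**
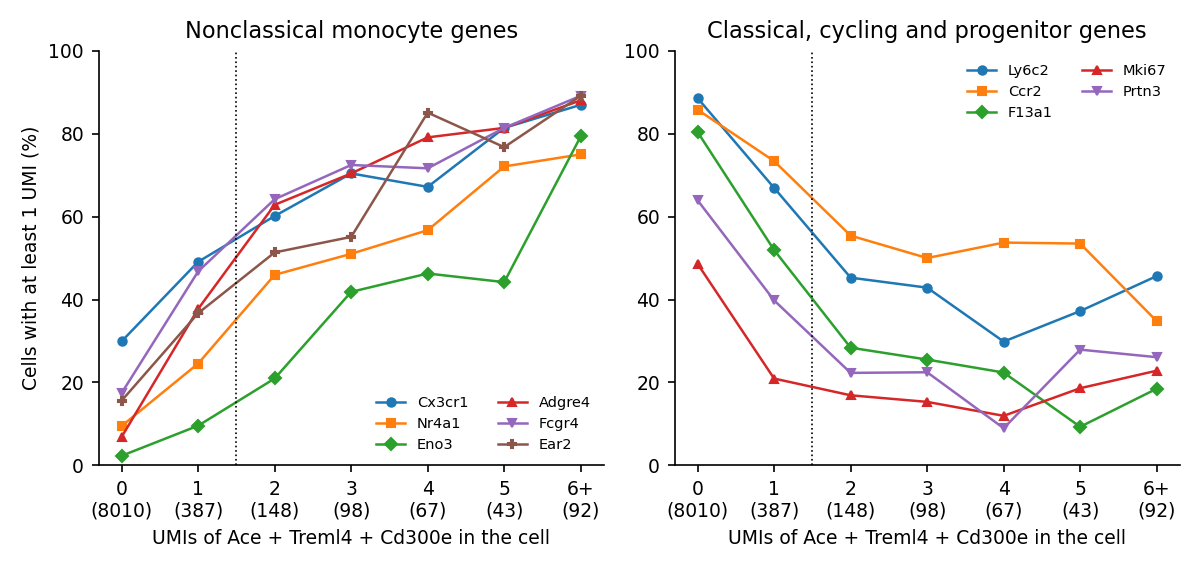
Percent of cells with at least 1 UMI of each gene (vertical axis) in cells with Csf1r and fewer than 4 C1q UMIs, by their summed UMIs of Ace, Treml4 and Cd300e (horizontal axis, number of cells in parentheses). Left, nonclassical genes, right, classical, cycling and progenitor genes, and the dotted line is the limit of the rule. Cx3cr1 goes from 29.9% at 0 UMIs to 87.0% at 6 or more, and F13a1 from 80.4% to 18.5%.

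The levels of the rule genes are a description of the cells that were chosen by them. Ace was detected in 83.9% of the cells, Treml4 in 62.1% and Cd300e in 43.3%. All 3 genes were present in 83 cells and any 2 of them in 234, while 89 cells held Ace alone, 33 Treml4 alone and 9 Cd300e alone. The cells with all 3 genes held Fcgr4 in 92.8% and Eno3 in 72.3%. The cells with Treml4 alone stood apart, with Ly6c2 in 84.8%, Eno3 in 9.09%, Saa3 in 51.5% and a median of 7427 UMIs.

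Cx3cr1 was present in the cells of every sample that had any. Its summed level was 382, 571, 775 and 474 CPM in WTO.3, WTO.4, WTO.5 and WTO.6. It was 52.0, 680 and 602 CPM in WTY.3, WTY.4 and WTY.5 and 447, 773 and 795 CPM in HRY.4, HRY.5 and HRY.6. Some of these levels rest on very few transcripts. HRY.4 held 2 cells with 2239 UMIs of all genes, HRY.5 held 1 cell with 2586, and WTY.3 held Cx3cr1 in 1 of 6 cells. For Cx3cr1 the sample order is therefore loose. It ran from 51.6 CPM to 465 CPM over the 6 HRO samples with a median of 206 CPM, and was 265 and 160 CPM in HRO.5 and HRO.6. The HRO and WTO ranges overlapped only through HRO.9, and the lowest levels were those of HRO.7, WTY.3 and HRO.8.

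Nr4a1 ranged more widely over samples. It was 0, 46.1, 710 and 119 CPM in WTO.3, WTO.4, WTO.5 and WTO.6, the last from 1 cell and the one before from 2 cells. Over the HRO samples it ran from 39.5 to 359 CPM (median 189 CPM), over WTY from 52.0 to 454 CPM and over HRY from 0 to 1160 CPM. Eno3 was at 0 in at least 1 sample of every group and reached 293 CPM among HRO, 452 CPM among WTO, 155 CPM among WTY, 387 CPM among HRY and 40.1 CPM for the chronic pair. The highest HRY values of both genes came from HRY.5, a single cell with 2586 UMIs. For these 2 genes the ranges of all groups overlapped.

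Against the Ccr2 F13a1 monocytes of the same samples, the nonclassical monocytes held more of many receptor, adhesion and cytokine transcripts, fewer cell cycle transcripts and fewer transcripts of the early granule proteases, while other neutrophil markers varied by sample. At least 20 cells of each kind were found in 5 samples. Of 3800 genes with a mean of at least 50 CPM in either kind, 855 (22.5%) were higher in all 5 samples and 1185 (31.2%) were lower in all 5, with a median log2 ratio of -0.05 over all genes. Ratios are of CPM plus 5, they carry no test because the cells were chosen by expression, and a gene that reached the minimum in 1 kind only had to differ. In the sentences that follow, values are in the order HRO.7, HRO.9, WTO.4, HR.7 and HRO.10.

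All 6 given markers were higher in all 5 samples, 3 of them by the rule. Cx3cr1 was 51.6, 465, 571, 543 and 361 CPM against 47.1, 59.3, 128, 130 and 34.7 CPM (median log2 ratio 2.11), so HRO.7 stood near its own comparison cells. Nr4a1 was 110, 268, 46.1, 248 and 355 CPM against 7.11, 20.9, 2.77, 11.4 and 7.65 CPM (3.40), with no overlap between the kinds. Eno3 was 129, 232, 120, 86.2 and 293 CPM against 2.33, 1.99, 1.66, 3.41 and 0.96 CPM (4.23), again with no overlap.

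Of 20 further genes known for this cell type, 17 reached the minimum and 15 were higher in all 5 samples, with a median log2 ratio of 2.85. Adgre4, an adhesion G protein-coupled receptor of myeloid cells, was 284, 363, 203, 484 and 289 CPM (median log2 ratio 4.57). Ear2, an eosinophil-associated ribonuclease, had a ratio of 3.75, and Pglyrp1, which binds bacterial peptidoglycan, 3.59. The Pglyrp1 ratio differed by sample, from 1.01 in HRO.7 to 4.66 in HRO.10. Spn, the leukocyte sialoglycoprotein CD43, was higher in 4 samples and lower in WTO.4 (0.89). Fabp4, a fatty acid carrier, was at 0 in HRO.7 and higher in the other 4 (3.87).

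Among 18 monocyte transcription factors, 14 reached the minimum, 8 were higher in all 5 samples and 2 were lower. Pou2f2, an octamer-binding factor, was 483, 990, 673, 1384 and 898 CPM (median log2 ratio 2.59), and Tcf7l2, a Wnt pathway factor, had a ratio of 3.53. Klf2, a factor that restrains inflammatory genes, was 844, 1043, 654, 690 and 707 CPM (1.79). Cebpb, which is needed for these cells, had a ratio of 1.13 and Spi1 0.84. Irf8, a monocyte fate factor, was lower in all 5 (-0.90), as was Cebpa (-0.18), and Klf4 was higher in 3 and lower in 2 (0.10).

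Of 17 adhesion and chemokine receptor genes, 15 reached the minimum, 9 were higher in all 5 samples and 2 were lower. Itgal, the LFA-1 alpha chain, was 232, 622, 396, 549 and 929 CPM against 91.2, 72.7, 115, 146 and 124 CPM (median log2 ratio 1.88). Itgb2, its beta chain, had a ratio of 1.63, Itga4 1.60, and S1pr5, a receptor for exit from marrow, 3.36. Of 12 genes of classical monocytes, 11 reached the minimum, 6 were lower in all 5 samples and Plac8 was higher, with Ly6c2 at a ratio of -2.28 and Fn1 at -1.92, while Ccr2 and F13a1 were used to choose the comparison cells.

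**Figure D2:**
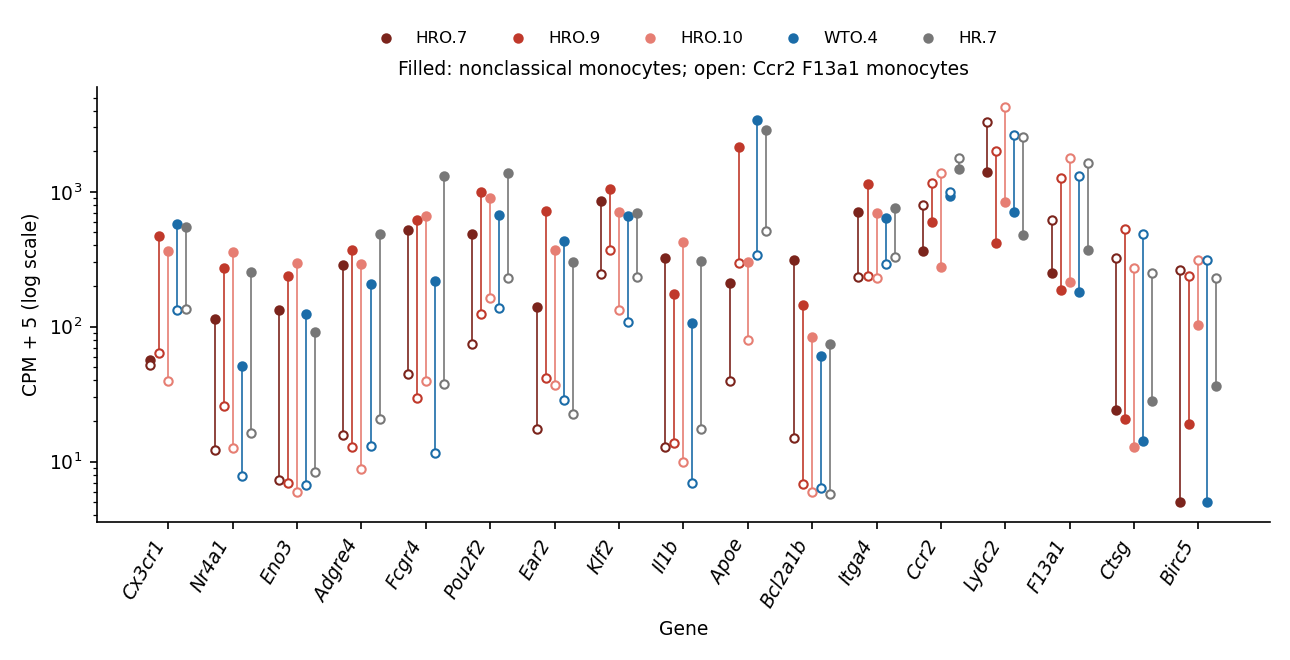
Summed level of 17 genes (vertical axis, CPM plus 5, log scale) in nonclassical monocytes (filled) and Ccr2 F13a1 monocytes (open) of the 5 samples with at least 20 cells of each kind, joined by a line per sample. Nonclassical cells lie above for Cx3cr1 to Itga4 and below for Ccr2 to Birc5, with the lines shortest for Cx3cr1 in HRO.7 and Ccr2 in WTO.4.

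Survival, uptake and lipid genes were mostly higher. Of 10 survival genes, 8 reached the minimum and 6 were higher in all 5 samples, among them the BCL2 family members Bcl2a1b (median log2 ratio 3.82), Bcl2a1a (3.68) and Bcl2a1d (2.91), near-identical copies whose reads may be split between them. Of 19 Fc receptor and phagocytosis genes, 18 reached the minimum and 11 were higher in all 5. Fcgr4, the IgG receptor that marks these cells, was 516, 616, 212, 1302 and 656 CPM against 39.8, 24.9, 6.64, 32.6 and 34.7 CPM (4.22). Lilra5, an activating receptor, had a ratio of 4.23, and Cd300ld, of the Cd300 family, 4.07. Of 14 lipid genes, 10 reached the minimum and 6 were higher in all 5. Apoe, the lipoprotein component, was 206, 2142, 3373, 2886 and 295 CPM against 34.6, 294, 333, 510 and 74.8 CPM (2.49). HRO.7 and HRO.10 were low for Apoe in the cells of both kinds.

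Among inflammatory and antigen presentation genes the share that was higher differed by list. Of 22 NF-kB and cytokine genes, 10 reached the minimum and 9 were higher in all 5 samples. Il1b, the cytokine interleukin-1 beta, was 316, 169, 101, 303 and 417 CPM against 7.91, 8.65, 1.94, 12.5 and 5.02 CPM (median log2 ratio 4.14). Nfkbia, the inhibitor of NF-kB, was 657, 317, 286, 273 and 382 CPM against 171, 134, 113, 88.9 and 134 CPM (1.48). Of 26 interferon gamma and antigen presentation genes, 23 reached the minimum and 10 were higher in all 5. The class II gene H2-Aa was 5284.5, 329, 811, 1049.7 and 230 CPM against 1562, 87.0, 128, 528 and 8.13 CPM (1.86), with HRO.7 highest in both kinds. Of 26 type I interferon genes, 15 reached the minimum and 7 were higher in all 5, with Irf7 at a ratio of 1.23. Of 13 acute-phase and alarmin genes, 12 reached the minimum, 0 were higher in all 5 and 2 were lower. Of 12 immediate early genes measured, which respond fast to stimuli, 7 were higher in all 5.

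Growth and progenitor genes were lower than in the Ccr2 F13a1 monocytes. Many of those comparison cells held cycling or progenitor transcripts, with Mki67 in 53.1%, Top2a in 46.4% and Prtn3 in 70.2%. The ratios below are thus against that mix and not against mature classical monocytes alone. All 15 cell cycle genes were lower in all 5 samples, with a median log2 ratio of -2.31. Mki67, a proliferation marker, was 174, 66.9, 36.9, 194 and 282 CPM against 668, 545, 781, 743 and 727 CPM (-1.91). Of 10 progenitor and basophil markers, 4 reached the minimum and all 4 were lower, among them the granule proteases Ctsg (-4.42), Prtn3 (-4.21) and Elane (-4.09) and the peroxidase Mpo (-3.76). Of 13 glycolysis genes measured, 6 were lower in all 5 and 1, Eno3, was higher. Dusp16, a phosphatase of stress kinases, had the highest median log2 ratio of the genes that the rule did not use (5.03).

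Neutrophil markers varied between cells and samples. Of 13, 12 reached the minimum, and the list summed to 1328 to 81981 CPM in nonclassical monocytes against 4525 to 11947 CPM in Ccr2 F13a1 monocytes. In 47 cells (10.5% of the cells and 25.1% of their UMIs) S100a8 and S100a9 made up at least 2% of UMIs. These cells had a median of 11262 UMIs against 3477, held Ly6g in 66.0% against 0.998%, and held Mki67 in 59.6% against 12.2%. They also held Cx3cr1 in 80.9%, Fcgr4 in 80.9% and Adgre4 in 85.1%. They numbered 14 in HRO.10, 11 in HR.7, 5 in HRO.9, 5 in WTO.4 and 0 in HRO.7. Without cells above this limit, of 3863 genes 979 (25.3%) were higher and 1095 (28.3%) lower in all 5 samples, and the neutrophil list had a median log2 ratio of -0.55. Of markers of other cells, 0 of 12 for T and NK cells, 1 of 12 for dendritic cells, 2 of 11 for B cells, 2 of 12 for macrophages and 4 of 8 for erythroid cells reached the minimum. The erythroid list summed to 5.28 to 12.9 CPM in HRO.7, HRO.9 and WTO.4 members, 608 CPM in HR.7 and 482 CPM in HRO.10, against 9.96 to 2905 CPM in Ccr2 F13a1 monocytes, and 0 of the 4 genes were higher or lower in all 5 samples. Adgre1 (median log2 ratio 1.25) and Hmox1 (0.86) were those macrophage genes, and both were higher in all 5.

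The cells differed among themselves along Ly6c2. The 187 cells with Ly6c2 held Saa3 in 39.0% and the 261 without it in 7.28%, while Fcgr4 summed to 378 CPM against 1246 CPM and Nr4a1 to 157 CPM against 428 CPM. By detection Fcgr4 was found in 68.4% against 77.8% and Nr4a1 in 54.0% against 59.4%. Of the cells with at least 2% S100a8 and S100a9, 45 held Ly6c2 and 2 did not. Within each of the 5 samples, among the cells under 2% S100a8 and S100a9, the summed levels of Fcgr4 and Nr4a1 were lower in the cells with Ly6c2. Detection of Nr4a1 was lower with Ly6c2 in HRO.7, WTO.4 and HRO.10. It was 64.1% with Ly6c2 against 61.1% without in HRO.9, and 56.0% against 55.0% in HR.7. Detection of Fcgr4 was lower with Ly6c2 in every sample but HRO.10, at 86.7% against 81.8%. Saa3 was found in more of the cells with Ly6c2 in 4 samples, but in WTO.4 in 0 of 9 cells with it and 1 of 10 without. In HRO.9, Fcgr4 was 249 CPM in the 39 cells with Ly6c2 and 948 CPM in the 90 without. In HR.7 it was 718 against 2250 CPM in HRO.10 616 against 1068 CPM, in HRO.7 280 against 1665 CPM and in WTO.4 65.6 against 294 CPM. Depth moved with this split, with a median of 5262 UMIs against 2748.5 in HRO.9. The part of depth in the detection of Ly6c2 and Saa3, and in the values of Fcgr4 and Nr4a1, was not tested.

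Detection also differed between the 5 samples in cells under this limit. HRO.7 held Cx3cr1 in 18.2% of 22 cells, against 73.6% in HRO.9, 89.5% in WTO.4, 70.6% in HR.7 and 76.5% in HRO.10. It held H2-Aa in 95.5%, against 24.0% to 45.9% in the others, and Ly6c2 in 68.2%, against 29.4% to 47.4%. Fcgr4 was found in 36.8% of the 19 cells of WTO.4 and in 75.2% to 83.5% of the other samples. Eno3 was found in 69.4% of HRO.10 cells and 23.5% of HR.7 cells, 2 samples of the same pool. HRO.8, with 7 cells, held Cx3cr1 in 28.6% and H2-Aa in 100%, and so lay beside HRO.7.

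**Figure D3:**
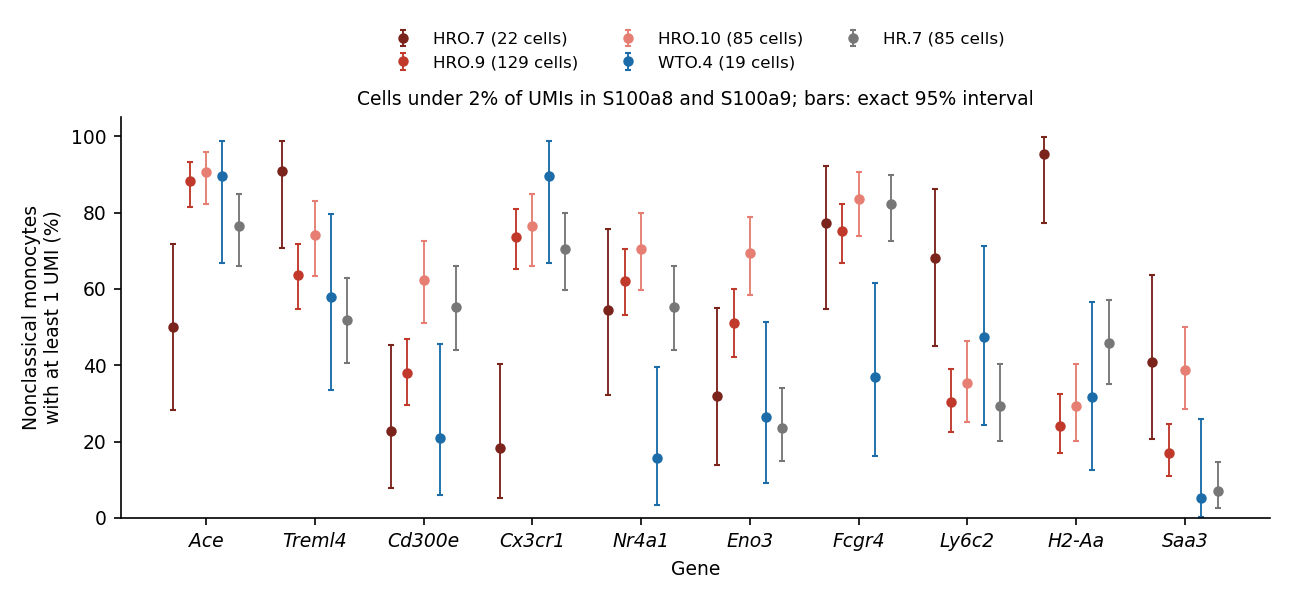
Percent of nonclassical monocytes with at least 1 UMI of each of 10 genes (vertical axis) in 5 samples, in cells with less than 2% of UMIs from S100a8 and S100a9, with exact 95% binomial intervals that cover counting error only. HRO.7 lies lowest for Cx3cr1 (18.2%) and highest for H2-Aa (95.5%), and WTO.4 lowest for Fcgr4 (36.8%).

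The share of nonclassical monocytes in bone marrow was set by a few samples. It was 0.398%, 0.279%, 2.77%, 5.68%, 0.192% and 0.491% of kept cells in HRO.7 to HRO.12, and 0.0904%, 0.695%, 0.201% and 0.0795% in WTO.3 to WTO.6. HRO.9 (134 of 4831 cells) and HRO.10 (99 of 1744) were far above the other HRO samples, whose shares overlapped those of WTO. The share was 0.198%, 0.970% and 0.985% in WTY.3 to WTY.5, and 0.0882%, 0.0904% and 0.483% in HRY.4 to HRY.6. It was 0.257% in HRO.5 and 0.319% in HRO.6. HR.7 had 3.42% and HR.AE 0 of 1401 cells, which allows up to 0.263% by the exact 95% interval. As a share of these cells plus Ccr2 F13a1 monocytes, HRO.9 held 12.1%, HRO.10 21.1% and HR.7 12.7%, against 0.787% to 6.77% in all other samples with any.

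**Figure D4:**
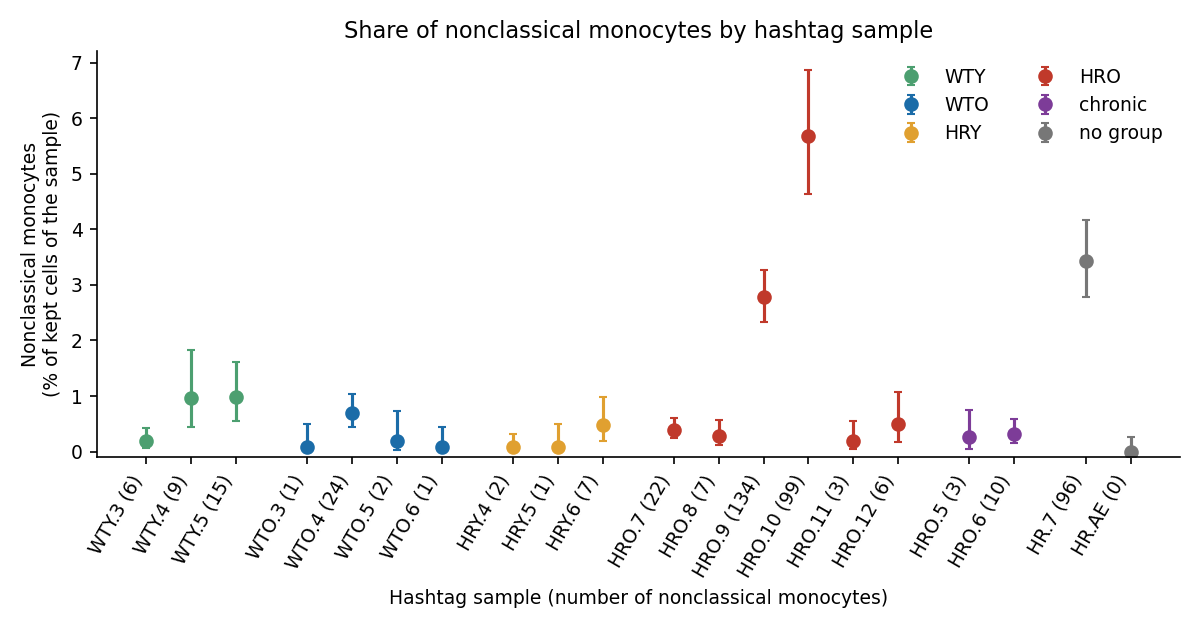
Share of nonclassical monocytes among the kept cells of each hashtag sample (vertical axis, percent), with exact 95% binomial intervals for counting error only and the number of cells in parentheses. HRO.10 (5.68%), HR.7 (3.42%) and HRO.9 (2.77%) stand above all other samples, which lie under 1%.

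No group difference in these shares passed its test. HRO held 1.64% ± 2.21 (SD, n = 6) and WTO 0.267% ± 0.291 (SD, n = 4), a difference of 1.37 points (exact two-sided permutation p = 0.248, adjusted over 8 tests 0.396, smallest p possible 0.00952). HRY held 0.220% ± 0.227 (SD, n = 3) and WTY 0.718% ± 0.450 (SD, n = 3), with an exact permutation p of 0.200, adjusted 0.396, where 0.100 is the smallest this design allows. HRO against HRY gave an exact permutation p of 0.143 (adjusted 0.396) and the chronic pair, at 0.288% ± 0.0433 (SD, n = 2), against HRO one of 0.357 (adjusted 0.476). As a share of monocytes, HRO held 7.05% ± 7.98 and WTO 2.69% ± 2.31 (exact permutation p = 0.419, adjusted 0.479). Within WBM_2 the HRO mean lay 0.455 points above WTO.4 in share of kept cells and 0.747 points below it in share of monocytes (difference -0.747), and within WBM_4 it lay 0.201 and 0.842 points above. Within WBM_1 and WBM_3 HRY lay under WTY in both pools, by -0.110 and -0.691 points. Without HRO.9 and HRO.10 together, HRO exceeded WTO by 0.0734 points of kept cells, and the difference in share of monocytes turned to -0.411 points.

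Shares of 1 sample also varied between the libraries of a pool. HRO.9 held 2.81%, 2.70% and 2.82% in WBM_2a, WBM_2b and WBM_2c. With fewer cells, HRO.7 held 0.512%, 0.380% and 0.288%, HRO.8 0.424%, 0.253% and 0.130%, and WTO.4 0.421%, 0.882% and 0.798%. In WBM_3 all 6 samples were lower in WBM_3b. HRO.10 held 7.06% in WBM_3a and 4.13% in WBM_3b, HR.7 4.84% and 1.73%, WTY.4 1.52% and 0.248%, and WTY.5 1.51% and 0.302%. Without WBM_3b the HRO to WTO difference was 1.60 points (exact permutation p = 0.248, adjusted 0.544).

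Between HRO and WTO, 2 of 751 genes tested in the summed nonclassical monocytes passed the threshold (0.266%), Saa3 higher and Mmp9 lower. Saa3 encodes serum amyloid A3, an acute-phase protein. It was read at 842 UMIs in HRO.7 (5426 CPM), 348 in HRO.8 (6881 CPM), 204 in HRO.9 (359 CPM), 935 in HRO.10 (1451 CPM), 0 in HRO.11 (at most 165 CPM by the exact 95% Poisson interval) and 198 in HRO.12 (2853 CPM). In WTO it was read at 2 UMIs in WTO.4 (18.4 CPM) and 0 in the other 3 samples, so HRO.11 alone overlapped WTO. The transcript sat in part of the cells, in 9 of 22 in HRO.7, 4 of 7 in HRO.8, 23 of 134 in HRO.9, 41 of 99 in HRO.10 and 4 of 6 in HRO.12. A single cell held 151 of the 198 UMIs in HRO.12, 221 of 348 in HRO.8 and 386 of 842 in HRO.7. The most in 1 cell was 27 of 204 in HRO.9 and 123 of 935 in HRO.10. Among cells under 2% S100a8 and S100a9, Saa3 was 6540 CPM with Ly6c2 and 0 CPM without it in HRO.7. The same values were 802 and 42.9 CPM in HRO.9, 2411 and 1836 CPM in HRO.10, and 0 and 36.8 CPM in WTO.4. HRO.7 and HRO.8, the samples with the highest Saa3, held Cx3cr1 in 18.2% and 28.6% of cells and Ly6c2 in 68.2% and 85.7%.

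The pooled ratio of HRO to WTO for Saa3 was 117 (exact 95% interval 32.5 to 970, counting error only), since WTO rested on 2 UMIs. The fit with group and pool gave a log2 fold change of 8.16 (SE 1.63, edgeR quasi-likelihood test, Benjamini-Hochberg adjusted p = 0.0369, 18 samples). The call was lost, with folds of 7.78, 7.73, 7.84 and 12.71, when HRO.8, HRO.10, WTO.3 or WTO.4 was left out. It was also lost with DESeq2 (7.48), with group alone (7.54), with hashtags centred within each cell (8.96), with at least 3 UMIs of the rule genes (8.01), without HRO.7 and HRO.8 together (6.09) and without the cells above the S100 limit (8.76). In the Ccr2 F13a1 monocytes of the same samples Saa3 ran from 154 to 895 CPM in HRO (median 523 CPM) and from 0 to 11.3 CPM in WTO, with no overlap. In HRO.7, HRO.9, HRO.10 and WTO.4 alone, the HRO to WTO difference in Saa3 was 0.89 log2 units larger in nonclassical than in Ccr2 F13a1 monocytes (SE 0.826). That fit had WTO.4 as its lone WTO sample, with 2 Saa3 UMIs in its nonclassical monocytes. Cell kind by pool was a term, so HRO.10, alone in its pool there, had no weight in the difference. The fit cannot decide whether the 2 kinds differ. In the remaining samples Saa3 stood at 4 UMIs in WTY.3 (208 CPM), 1 in HRY.6 (20.9 CPM), 9 in HR.7 (18.9 CPM) and 0 in WTY.4, WTY.5, HRY.4, HRY.5 and the chronic pair.

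**Figure D5:**
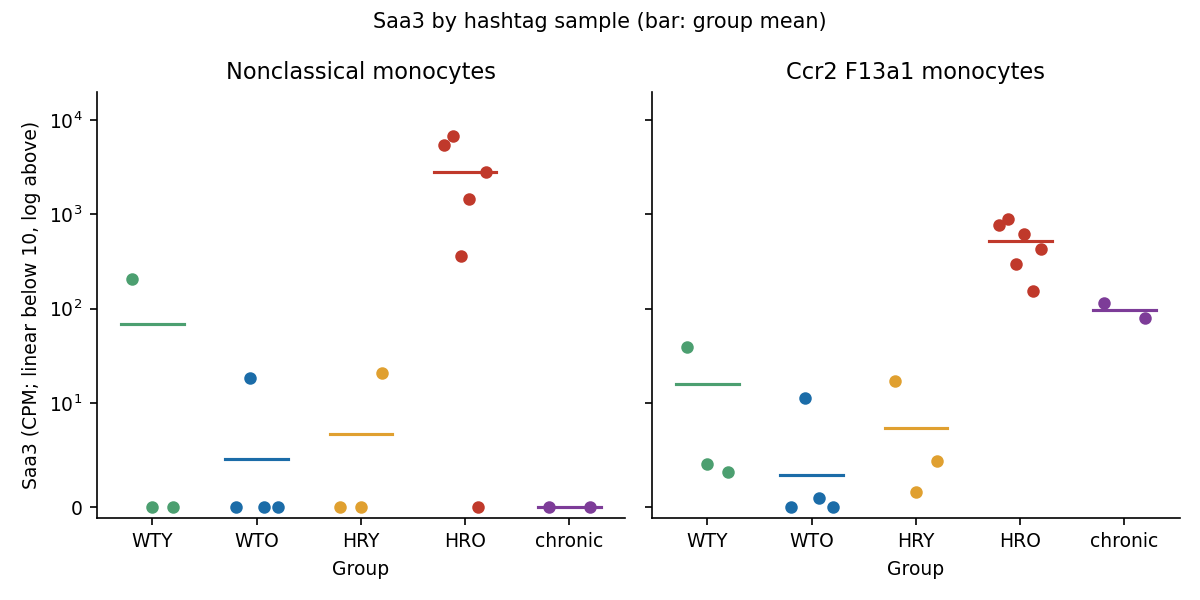
Saa3 level of each hashtag sample (vertical axis, CPM, linear below 10 and log above) in nonclassical monocytes (left) and Ccr2 F13a1 monocytes (right), with bars at group means. In nonclassical monocytes 5 of 6 HRO samples lie at 359 to 6881 CPM and HRO.11 at 0, and in Ccr2 F13a1 monocytes all 6 lie at 154 to 895 CPM.

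Mmp9, a gelatinase stored in neutrophil granules, was 127, 313, 1033 and 1422 CPM in WTO.3, WTO.4, WTO.5 and WTO.6. Over HRO it was 0 CPM in HRO.7, HRO.8 and HRO.11, 7.04 CPM in HRO.9, 97.7 CPM in HRO.10 and 331 CPM in HRO.12, so HRO.12 overlapped WTO. The log2 fold change was -3.94 (SE 0.757, edgeR adjusted p = 0.0369). Mmp9 was found in 55.3% of the cells with at least 2% S100a8 and S100a9 and in 2.24% of the rest, and in WTO.5 and WTO.6 all 16 and 12 UMIs came from 1 cell each. Without the cells above the S100 limit Mmp9 did not reach the count minimum, and leaving out HRO.8, HRO.10 or WTO.4 lost the call (-3.91, -3.89 and -3.01), as did group alone (-3.30), hashtags centred within each cell (-2.92) and leaving out HRO.7 and HRO.8 together (-3.69).

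Ddx3y, a Y-linked gene, was found in at least 5% of cells in 1 of 6 HRO and 3 of 4 WTO samples, so its status was not balanced between the groups. With Ddx3y status as a term 9 genes were called, Saa3 (8.17) and Mmp9 (-4.35) among them.

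No other gene passed between HRO and WTO, and 70 of the 751 had an unadjusted p under 0.05. The count was 27 without HRO.9, 4 without HRO.12 or without WTO.5, and 10 by DESeq2. Of the 3 given markers that could be tested, Cx3cr1 had a log2 fold change of -1.73 (SE 0.539, edgeR adjusted p = 0.201), Nr4a1 -0.05 (SE 0.898) and Ace -0.24 (SE 0.481). Ace is a rule gene, so its value describes cells that were chosen by it and is no independent test. Of the 14 further nonclassical genes tested, 0 passed (median 0.11, all genes 0.09), with 1 lower at unadjusted p under 0.05. Of 14 interferon gamma and antigen presentation genes tested, 0 passed (median 0.998), with 6 higher at unadjusted p under 0.05. H2-Aa had a log2 fold change of 2.14 (SE 0.932, edgeR adjusted p = 0.480) and Il1b 1.88 (SE 0.604, edgeR adjusted p = 0.212). Of 10 neutrophil markers tested, 1 passed (Mmp9, lower) and the median was -2.44, with 2 higher and 6 lower at unadjusted p under 0.05. Of 3 progenitor and basophil markers tested, 0 passed (median 3.48), with 3 higher at unadjusted p under 0.05. Elane and Mpo stand in both lists. Of 10 acute-phase genes tested, 1 passed (Saa3), with a median of -0.99.

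HRY against WTY gave 0 of 751 genes (0%) by edgeR, 21 at unadjusted p under 0.05 and 1 by DESeq2. Cx3cr1 had a log2 fold change of 0.34 (SE 0.727), Nr4a1 0.07 (SE 1.04) and Fcgr4 -0.27 (SE 0.855). HRO against HRY also gave 0 of 751 genes (0%) by edgeR, 24 at unadjusted p under 0.05 and 1 by DESeq2. There Cx3cr1 had a log2 fold change of -1.02 (SE 0.826), Fcgr4 0.90 (SE 0.855) and Il1b 4.24 (SE 1.18, edgeR adjusted p = 0.690).

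The chronic pair against HRO gave 4 of 751 genes (0.533%), all higher, 3 of which were haemoglobin genes. The log2 fold changes were 8.38 (SE 1.23, edgeR adjusted p = 0.000737) for Hbb-bs, 9.98 (SE 1.36, edgeR adjusted p = 0.000737) for Hba-a1 and 7.19 (SE 1.26, edgeR adjusted p = 0.00732) for Hbb-bt. A single cell of 3 in HRO.5 held 2881 of 2887 haemoglobin UMIs, which were 46.9% of its transcripts, and a single cell of 10 in HRO.6 held 1279 of 1309 (35.7%). The other members of the pair thus carried few. Among Ccr2 F13a1 monocytes, 3.88% of HRO.5 and 2.52% of HRO.6 cells had at least 2% haemoglobin. The other WBM_1 samples were near these values, at 2.37% in WTY.3, 2.86% in WTO.3 and 1.59% in HRY.4. Ighm, the immunoglobulin heavy chain of B cells, was 862 and 240 CPM (13 and 6 UMIs) in the pair against 23.3 to 77.3 CPM in HRO. The log2 fold change was 4.74 (SE 1.04, edgeR adjusted p = 0.0403). Of the other WBM_1 samples, WTY.3 held Ighm at 520 CPM (10 UMIs), and WTO.3 with 1 cell and HRY.4 with 2 cells held 0 UMIs. WTO.4, of another pool, held 433 CPM.

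S100a8 reached 94452 CPM for HRO.5 and 101831 CPM for HRO.6, while HRO ran from 574 to 26082 CPM, and 8 of 10 neutrophil markers tested were higher at unadjusted p under 0.05 with 0 past the threshold. In these samples 1 cell held 421 of 430 Camp UMIs (HRO.5) and 1 cell 708 of 727 (HRO.6), Camp being a granule peptide of neutrophils. No gene was called without HRO.10, 16 were called without HRO.5, 13 without HRO.6 and 8 without HRO.9. The pair was only in WBM_1 and HRO only in other pools, so the contrast rests on WTY.3, WTO.3 and HRY.4 to set the pool apart. Of the 3 given markers tested, 0 passed, with Cx3cr1 at 2.06 (SE 1.25) and Ace, which the rule used to choose the cells, at 0.83 (SE 0.852).

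The HRO to WTO difference itself was compared between nonclassical and Ccr2 F13a1 monocytes in HRO.7, HRO.9, HRO.10 and WTO.4. The difference of differences passed for 20 of 10738 genes (0.186%), 19 of them lower in nonclassical monocytes. Of the 19, 10 were neutrophil markers, among them S100a8 (-5.02, SE 0.327), S100a9 (-5.09, SE 0.336) and Camp (-5.13, SE 0.371), antimicrobial granule and cytosol proteins. Camp was 135, 4547 and 9733 CPM in nonclassical monocytes of HRO.7, HRO.9 and HRO.10 and 10894 CPM in WTO.4, while it was 267 CPM in the Ccr2 F13a1 monocytes of WTO.4. The list of 13 neutrophil markers had a median of -4.52 against 0.20 for all genes. Without cells above the S100 limit 1 gene was called, without HRO.7 4 and without HRO.9 31. With every HRO and WTO sample that held a member (6 and 4 samples, 5 residual degrees of freedom, added after seeing the data), 26 of 7515 genes passed (0.346%), 16 of them among the 20. Of the 26, 21 were lower, 10 of them neutrophil markers, with S100a8 at -4.31 (SE 0.525). The 5 higher genes were Mpo (12.27, SE 2.33), Elane (4.15, SE 0.894), Prtn3 (3.54, SE 0.821), Ms4a3 and A630001G21Rik. Mpo and Elane belong to the list of 13 neutrophil markers too, so members of that list passed in both directions. Both were at 0 CPM in the nonclassical monocytes of WTO.4. In the fit on 4 samples Stmn1 was the 1 gene higher and was at 0 UMIs in the 24 cells of WTO.4, and Siglech came from 13 UMIs in 1 of them. Neither Stmn1 nor Siglech passed with every sample. Both fits held a term for cell kind by pool, which left a sample alone in its pool without weight in the difference. That was HRO.10 in both fits, and also WTO.3 in the fit with every sample. The fit on 4 samples had 1 residual degree of freedom and WTO.4 as its lone WTO sample. The spread of WTO.4 was taken to be that of the others, so the calls of this fit describe WTO.4 against HRO.7 and HRO.9.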

How the data were processed

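Total bone marrow was read as 7 libraries of 3′ transcript counts with hashtag antibodies. The deposited values are raw UMI counts for 31053 genes and for the hashtags, and the gene matrices were made with Cell Ranger 3.0.0 (WBM_1) or 3.1.0 (the others) per the file headers. The submitters' processing notes name mm10, bcl2fastq, Cell Ranger and Seurat, while for the gene annotation and the barcode calling the tool or version is not given in the sources used here.

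Barcodes were assigned to hashtags with HTODemux (Seurat 5.3.0, positive quantile 0.99), which the series' design text names. Of 78720 barcodes, 54669 were kept with at least 300 genes and under 10% mitochondrial UMIs. Of each barcode shared by WBM_3a and WBM_3b the copy with fewer UMIs was removed. Cells with more than 1 hashtag were treated as doublets and left out of every comparison, and no other doublet caller was run. Members were counted as a share of kept cells and of members plus Ccr2 F13a1 monocytes, and groups were compared by exact two-sided permutation tests, adjusted over 8 tests. Counts of members were summed per hashtag sample and tested with edgeR 4.0.16 (quasi-likelihood, TMM scaling, group and pool as terms, 18 samples, 751 genes, 10 residual degrees of freedom, Benjamini-Hochberg threshold 0.05). A planned minimum of 20 members a sample left no comparison with 2 samples a side, so every sample with a member entered the fit, which was decided after the cell numbers were seen. DESeq2 1.42.0, other scalings, filters, member rules and left-out samples were alternatives. The test was tried on simulated data with known changes.

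Genes were named by a fixed rule: the 6 given markers, list members that passed and up to 4 that did not, up to 10 largest changes a comparison, and the largest ratios between the monocyte kinds. Other list genes were named after their values were seen, and 1 list gene is not reported here. The members, the 23 lists and the tests were chosen with earlier results of these data known. Summed counts ran from 2239 to 644588 UMIs a sample, and intervals and limits cover counting error only.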

Additional observations from a re-analysis of the deposited data

Results flagged for a closer look

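In 28 gene or share values of a group with 4 to 10 samples, 7 had 1 sample set apart from the rest by a gap test at the 95% level. The nominal rate of 5% does not apply to these values. A gene read in 1 sample of a group and at 0 in the others is always set apart, as were Cd300e, Hba-a1 and Saa3 in WTO. The 7 therefore cannot be read as an excess, and Cd300e is also a rule gene. In WTO, where 2 of 4 samples hold 1 cell each, these were Cd300e in WTO.4 (82.9 CPM, the others 0), Nr4a1 in WTO.5 (710 CPM), Hba-a1 in WTO.6 (119 CPM), Hbb-bt in WTO.3 (127 CPM) and Saa3 in WTO.4 (18.4 CPM). In HRO they were Hba-a1 in HRO.10 (85.3 CPM) and Mmp9 in HRO.12 (331 CPM, 23 UMIs from 1 cell).

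HR.7, which entered no comparison, had a share of 3.42% of kept cells. In a test of the difference between nonclassical and Ccr2 F13a1 monocytes in their HRO to WTO change, 20 genes passed, but WTO was the single sample WTO.4, with 1 residual degree of freedom, and 1 gene passed without cells above the S100 limit, so the test does not show a difference between the groups.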

How the results depend on the processing

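Of 130 alternatives of the 8 share differences, 128 kept their direction and 0 reached an adjusted p under 0.05 (lowest 0.190). The exceptions were without HRO.9 and HRO.10 together, chosen after seeing the data, where the share of monocytes differed by -0.411 points for HRO against WTO and by 0.0873 points for the chronic pair against HRO.

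The 2 genes called between HRO and WTO became 10 with DESeq2, 4 with RLE scaling, 37 with no filter on low counts, 9 with a Ddx3y term, and 0 with group alone, with hashtags centred within each cell, with at least 3 UMIs of the rule genes, or without HRO.7 and HRO.8 together. Without cells at 2% or more S100a8 and S100a9 (added after seeing the data) 1 was called, which was neither of the 2. Leaving out 1 sample gave 0 to 27 calls (0 without HRO.8, HRO.10 or WTO.4, 27 without HRO.9, 4 without HRO.12 or WTO.5). HRY against WTY (0 called) gave 1 with DESeq2 and 2 with no filter, and HRO against HRY (0 called) gave 1 and 6. The 4 calls of the chronic pair against HRO became 17 with no filter, 9 with group alone, 0 with hashtags centred within each cell, 1 with at least 3 UMIs of the rule genes and 2 with at least 3 members a sample (added), and 0 to 16 with 1 sample left out (0 without HRO.10, 16 without HRO.5, 13 without HRO.6, 8 without HRO.9). With hashtags centred within each cell, Hbb-bt turned to -0.13 and Hba-a1 to -0.35. The 20 genes of the difference between monocyte kinds became 4 without HRO.7 and HRO.8, 4 with DESeq2 and 1 without cells above the S100 limit (added), 4 to 31 with 1 sample left out, and 26 with every sample that held a member (added). The cause was not tested. Without WBM_3b no call count moved.

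Minima of 10, 20, 40 and, as an addition, 5 members a sample left too few samples for a fit, as did the difference between kinds without WTO.4. No paired analysis was possible because hashtag numbers name samples and pair none.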

Other observations

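Of 6 Tet and Dnmt genes, the DNA demethylases and methyltransferases, 3 reached the minimum in nonclassical or Ccr2 F13a1 monocytes. Tet2 was 174, 192, 46.1, 177 and 124 CPM in the nonclassical monocytes of HRO.7, HRO.9, WTO.4, HR.7 and HRO.10, against 75.4, 87.5, 71.1, 108 and 104 CPM in their Ccr2 F13a1 monocytes. It was higher in 4 of the 5 samples (median log2 ratio 0.69) and lower in WTO.4. Dnmt1, which copies methylation at replication, was lower in all 5 (-1.57), and Tet3 was close to 0 (-0.10).

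HR.7 held 96 nonclassical monocytes, 12.7% of its monocytes, and HR.AE held 0 of 1401 kept cells. The 146 nonclassical monocytes with more than 1 hashtag, left out above, had a median of 7775.5 UMIs, and 34.9% of them had at least 2% of UMIs from S100a8 and S100a9.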
